A study of Mus musculus with 240 samples.

Results

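Ptgds is the mouse gene for lipocalin-type prostaglandin D synthase, and its transcript is followed here through 240 RNA libraries of oligodendrocyte precursor cells and brain tumour cells. It is 1 of 34623 genes in the compiled table of counts, found there by its symbol (ENSMUSG00000015090). It was selected on the spread of its values, which differed more between small samples of 10 cells, relative to matched controls, than those of any other ranked gene. That spread is therefore given as a description, without a test, save for its change with time, which was tested on the same values. The level of the gene over time and genotype, and its relation to other genes in bulk tissue, were not used to choose it and were tested.

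The encoded enzyme turns prostaglandin H2, the product of the cyclooxygenases, into prostaglandin D2. It is also a secreted lipocalin that carries small fat-soluble molecules, and as such it is an abundant protein of cerebrospinal fluid. In the brain it is known from mature oligodendrocytes, from the leptomeninges and from the choroid plexus. A second and unrelated enzyme, Hpgds, makes the same prostaglandin in microglia and in blood-derived cells.

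The libraries came from cells cut by laser from frozen brain sections, and the bulk titles mark theirs as tdTpositive. Mice labelled CKO had the genotype Trp53-/- Nf1-/- and those labelled WT were wild-type. The titles of the tumour libraries give Tumor in that place. In every group time is given in days from the start of tamoxifen (dpi). The driver of recombination and the age of the mice are not given in the sources used here. The bulk libraries, 48 from 37 animals and 10 µm sections, cover WT mice at 12 dpi (n = 5), 90 dpi (n = 5) and 150 dpi (n = 6), CKO mice at 12 dpi (n = 7) and 90 dpi (n = 7), and CKO tumours at 150 dpi (n = 7). All small libraries were from CKO mice, at 12 or 90 dpi, cut at 8 µm. At each time there were 56 libraries of 10 cells and 40 pool-and-split libraries, the controls in which captured material is pooled and divided again. They form 4 sets per time and kind, by sex and by a number that ends the label, with 14 10-cell or 10 pool-and-split libraries in a set. Whether a set is 1 animal is not given in the sources used here, so p-values over sets measure the spread between these sets, which may be technical.

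Totals, in units of 1000000 counts (M), ranged from 1.64 to 6.49 M counts in the 10-cell libraries, from 1.91 to 5.16 M counts in the pool-and-split libraries and from 0.0937 to 23.2 M counts in bulk. Levels are counts per 1000000 of a library's total (CPM). In bulk and in sums over sets, totals were scaled by TMM. The labelled cell type was visible in bulk, where the precursor marker Pdgfra, a growth factor receptor, had group medians of 281 to 1195 CPM over libraries. In the small libraries Pdgfra was low, with group medians of 1.42 to 7.32 CPM, while the proteoglycan Cspg4 was counted in all 112 10-cell libraries. The 10-cell medians at 12 and 90 dpi were 65.6 and 71.8 CPM for Cspg4 and 175 and 338 CPM for Olig1. Other precursor markers, Sox10, Vcan, Lhfpl3, C1ql1 and Matn4, had 10-cell medians of 0 at 12 dpi and of 2.34 to 14.3 CPM at 90 dpi. The neuronal transcript Snap25 had medians of 223 to 4181 CPM over the bulk groups. In the 10-cell libraries its medians were 523 CPM at 12 dpi and 342 CPM at 90 dpi. The choroid plexus transcript Ttr had a median of 0 in every group of small libraries and of at most 0.10 CPM in bulk.

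The gene lies on chromosome 2 of GRCm38, from 25466709 to 25470046 on the minus strand. GENCODE M21 gives it 5 transcripts, the longest in exon number with 8 exons, and no other annotated gene overlaps it. No transcript of another gene matched it at 95% identity over 50% of the shorter transcript. The 250 bases before the RefSeq start site (GRCm38.p6, chr2:25469750-25469999, minus strand) are shown because the results turn on a single gene and on those that rise and fall with it. Capitals mark CAGCTG, a form of the E-box CANNTG, and TGACTCA, the letters that AP-1 factors bind.
Ptgds promoter: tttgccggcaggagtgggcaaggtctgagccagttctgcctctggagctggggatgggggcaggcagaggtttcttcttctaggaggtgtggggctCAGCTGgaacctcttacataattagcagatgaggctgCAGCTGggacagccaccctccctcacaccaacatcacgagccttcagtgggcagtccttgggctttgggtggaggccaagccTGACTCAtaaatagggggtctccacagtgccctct
CAGCTG began at positions -154 and -117 relative to the RefSeq start site and TGACTCA at -35. All of the window lies inside the gene as GENCODE gives it, since the transcript Ptgds-202 starts at 25470046. Another transcript, Ptgds-201, starts within the window, at 25469842. TGACTCA thus lay downstream of both of these starts, and each CAGCTG downstream of that of Ptgds-202. On either strand, CAGCTG was held by 13.0% of the 32851 RefSeq promoters cut to the same length, TGACTCA by 4.46% and the general form CANNTG, which includes CAGCTG, by 66.2%. CANNTG also began at -129. The E-box form CACGTG, held by 6.02% of promoters, was not found in this window. Neither was ACAAAG, held by 16.5%, nor TATAAA, held by 12.4%. The letters CTGGCAC (4.19%) and then CTGGTAC (1.83%) were also searched and not found. Of the 8 genes described later as most like Ptgds, 7 had a promoter entry, and TGACTCA was in none of these. These are matches of letters in a window and say nothing of binding.

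In the 10-cell libraries Ptgds ran from no count at all to 6.64% of all counts of a library. At 12 dpi the 56 libraries ranged from 0 to 9279.9 CPM with a median of 59.9 CPM, and 15 of them held no count. Those 15 libraries had 1.64 to 6.49 M counts each, so that 3 counts, the limit that a count of 0 allows, would be 0.462 to 1.83 CPM, a limit that covers counting error only. At 90 dpi the range was 0 to 66440.3 CPM with a median of 912 CPM, and 2 libraries were at 0. The 5 libraries with the most counts held 69.1% of all Ptgds counts at 12 dpi and 62.3% at 90 dpi.

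The transcript was counted in all 80 pool-and-split libraries. At 12 dpi they ranged from 37.6 to 10928 CPM around a median of 772 CPM, and at 90 dpi from 112 to 4944 CPM around a median of 1607 CPM. Of the 56 10-cell libraries, 25 at 12 dpi and 15 at 90 dpi lay below the lowest pool-and-split library of their time. Above the highest one lay 0 at 12 dpi and 4 at 90 dpi. A level over 1000 CPM was reached by 8 of 56 10-cell libraries and 18 of 40 pool-and-split libraries at 12 dpi, and by 27 of 56 and 27 of 40 at 90 dpi.

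**Figure D1:**
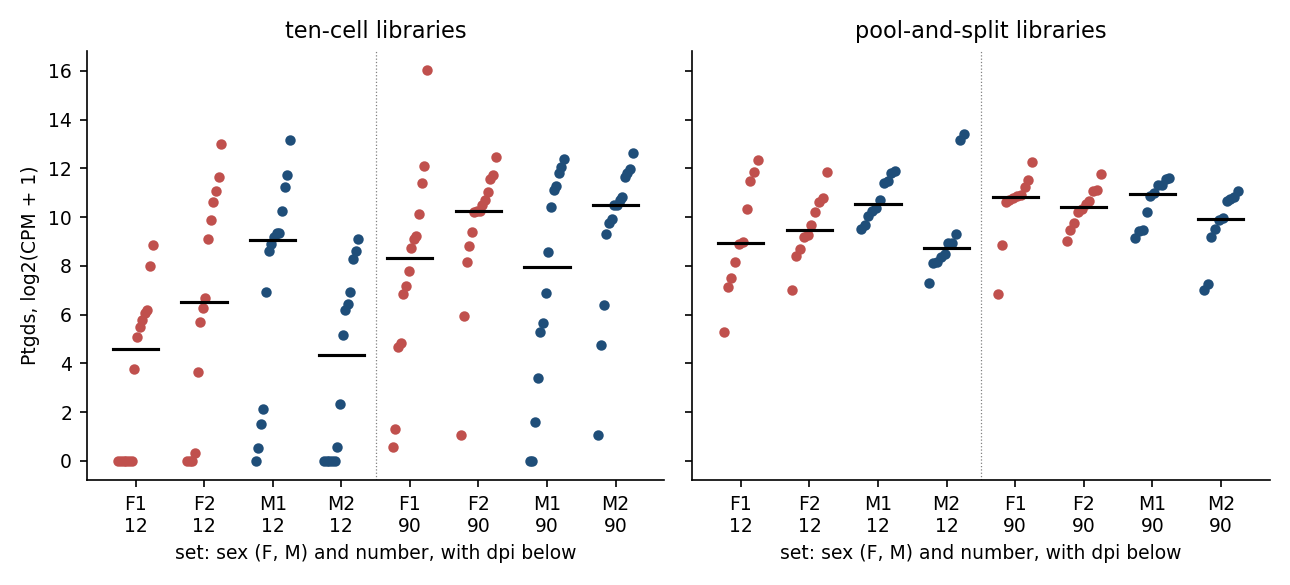
Ptgds on the log2(CPM + 1) axis in every small library, by set (F, female; M, male; 1 or 2, the number ending the label; dpi below); each point is a library and the bar is the median of its set. The 10-cell libraries reach from 0 to 66440.3 CPM, while no pool-and-split library is below 37.6 CPM.

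Between 0 and 6 libraries of a set lacked the transcript. At 12 dpi the female-1 set had 6 of 14 libraries at 0, a median of 22.7 CPM and a highest value of 457 CPM. The male-2 set was alike, with 5 libraries at 0, a median of 19.4 CPM and a highest value of 545 CPM. The female-2 set had 3 libraries at 0 and a highest value of 8091 CPM, and the male-1 set 1 at 0 and a highest value of 9279.9 CPM. At 90 dpi the 2 libraries at 0 were both in the male-1 set, and the lowest values of the other sets were 0.494, 1.08 and 1.11 CPM. Low libraries thus occurred in every 10-cell set, and libraries above 1000 CPM in all but female-1 and male-2 at 12 dpi.

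The standard deviation of log2(CPM + 1) within a set, averaged over the 8 sets, was 3.89 in the 10-cell libraries and 1.43 in the pool-and-split libraries. The difference of 2.46 ranked Ptgds 1 of 8889 genes, and the haemoglobin genes Hbb-bs, Hba-a1 and Hba-a2 ranked 3, 4 and 5 at 1.70, 1.63 and 1.57. Over all ranked genes the median of both kinds was close, 2.33 in 10-cell and 2.27 in pool-and-split libraries. In 10-cell spread alone Ptgds ranked 5. These values chose the gene and are not evidence for it.

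Whether the spread changed with time was open to a test, since the choice did not use it. The SD per set was 3.37, 4.78, 4.42 and 3.72 at 12 dpi and 4.14, 2.91, 4.57 and 3.21 at 90 dpi. The sets of both times overlapped, and the means of 4.07 and 3.71 differed by -0.36 (exact permutation test, two-sided, p = 0.486, n = 4 sets against 4, smallest possible p 0.0286). With other settings the difference was 0.12 (pseudocount 5), -1.24 (pseudocount 0.1, exact permutation p = 0.114) and -1.42 (median absolute deviation in place of the SD, exact permutation p = 0.171).

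The level over time was compared on counts summed per set. In 10-cell sets Ptgds was at 68.2, 1540, 1582 and 132 CPM at 12 dpi and at 5187, 1276, 1288 and 1611 CPM at 90 dpi, in the order female-1, female-2, male-1 and male-2. The range at 90 dpi began below the highest sets of 12 dpi. The log2 fold change from 12 to 90 dpi was 1.38 (SE 0.96), with an adjusted p of 0.786 from edgeR's quasi-likelihood test. Without the single library that held the most Ptgds it was 0.56 (SE 0.86, edgeR adjusted p = 0.909), an alternative chosen after seeing the data. In pool-and-split sets Ptgds was at 1723, 1438, 1821 and 2332 CPM at 12 dpi and at 1996, 1437, 1627 and 1079 CPM at 90 dpi, in the same order. These sets also overlapped, and the log2 fold change was -0.25 (SE 0.26, edgeR adjusted p = 0.857). In both fits edgeR called 0% of the genes tested (0 of 14496 and 0 of 13402). At an unadjusted p under 0.05 there were 1035 and 1051 genes, and DESeq2 called 273 and 521, Ptgds not among them.

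The library with the most Ptgds, of the female-1 set at 90 dpi, stood far from the rest. It held 282756 Ptgds counts, 6.64% of its 4.26 M counts, against 4352 CPM in the next library of its set and 9279.9 CPM in the next of all 10-cell libraries. Its Mbp, myelin basic protein, was low, at 105 CPM against a median of 450 CPM over the 56 libraries. Its Apod, a lipocalin related to Ptgds, was at 1003 CPM, the second highest value of that time. Its summed level of the 13 leptomeningeal fibroblast markers was 3730 CPM, the highest of the 56 libraries, whose median was 423.5 CPM, and 2 of the 13 markers were at 0. Among the defining genes of that list Dcn, a proteoglycan of connective tissue, was at 106 CPM against a median of 0.461, while Col1a1, the main chain of type I collagen, was at 0. Chosen after their values were seen, the transporters Slc6a13 and Slc22a6 were at 483 and 705 CPM and the matrix genes Ogn and Aebp1 at 754 and 899 CPM, the last 3 the highest of the 56 libraries. Genes detected (9541) and the share of spike-in reads (5.50%) lay inside the range of the other 10-cell libraries. The part of leptomeningeal RNA in the high value was not tested.

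The relation of Ptgds with measures of depth is given for each time, with no test of the difference between them. Over the 56 10-cell libraries at 12 dpi, centred on their sets, Pearson r was 0.46 with the number of genes detected, -0.43 with the log2 share of spike-in reads and 0.20 with the log2 total. At 90 dpi the same values were 0.07, 0.09 and -0.21. The 15 libraries at 0 at 12 dpi held between 3324 and 12622 detected genes, where all 56 libraries ranged from 3324 to 12640 with a median of 7550. Of the libraries at 0, those with 7573, 7652, 9176, 9189 and 12622 genes lay above that median and the rest below it. The part of RNA yield in the low values was not tested.

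Genes that rose and fell with Ptgds were ranked over the 7599 other genes counted in at least 50% of the 10-cell libraries at each time. The measure was the Pearson r of log2(CPM + 1), centred on the median of its set, over 56 libraries at 12 dpi and 56 at 90 dpi, and a gene was ranked by the lower of its 2 values. The libraries share sets, amplification by PCR and depth, so these r values describe the libraries and carry no p. Over all ranked genes the median r was 0.18 at 12 dpi and 0.03 at 90 dpi, and 89.2% and 57.4% of genes were above 0. An r above 0.3 was found for 18.8% of genes at 12 dpi, for 2.28% at 90 dpi and for 41 genes, 0.540%, at both.

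Apod came first, with r = 0.57 at 12 dpi and 0.53 at 90 dpi. Apolipoprotein D is a secreted lipocalin that, like Ptgds, is made by mature oligodendrocytes and by fibroblasts of the meninges. Its r was above 0 in all 8 sets, from 0.33 to 0.90. Apod ranged from 0 to 1815 CPM over the 12 dpi libraries, where its median was 14.9 CPM, and from 0 to 1724 CPM at 90 dpi around a median of 156 CPM. In the pool-and-split libraries its r with Ptgds was 0.38 at 12 dpi and 0.04 at 90 dpi. With the number of genes detected regressed out, an alternative chosen after seeing the data, Apod still ranked 1, with r = 0.50 and 0.53.

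Trf and Tppp, 2 other genes of mature oligodendrocytes, ranked 5 and 2. Trf encodes transferrin, the iron carrier that oligodendrocytes make and secrete, and had r = 0.38 at 12 dpi and 0.54 at 90 dpi. Tppp, which bundles microtubules as oligodendrocytes extend processes, had r = 0.43 and 0.44. With genes detected regressed out they ranked 40 and 35, and r of Trf at 12 dpi was 0.21. The remaining 5 of the first 8 were Retreg2, a receptor of endoplasmic reticulum turnover (0.43 and 0.45), the splicing regulator Tra2b (0.42 and 0.57), the junction protein Pkp4 (0.36 and 0.41), the spliceosome subunit Snrnp27 (0.37 and 0.36) and the platelet receptor subunit Gp1bb (0.36 and 0.35). By rank (Spearman rho) Retreg2 had 0.25 and 0.26. Of these 8 genes, 4 remained among the first 8 by Spearman rho and 2 with genes detected regressed out.

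**Figure D2:**
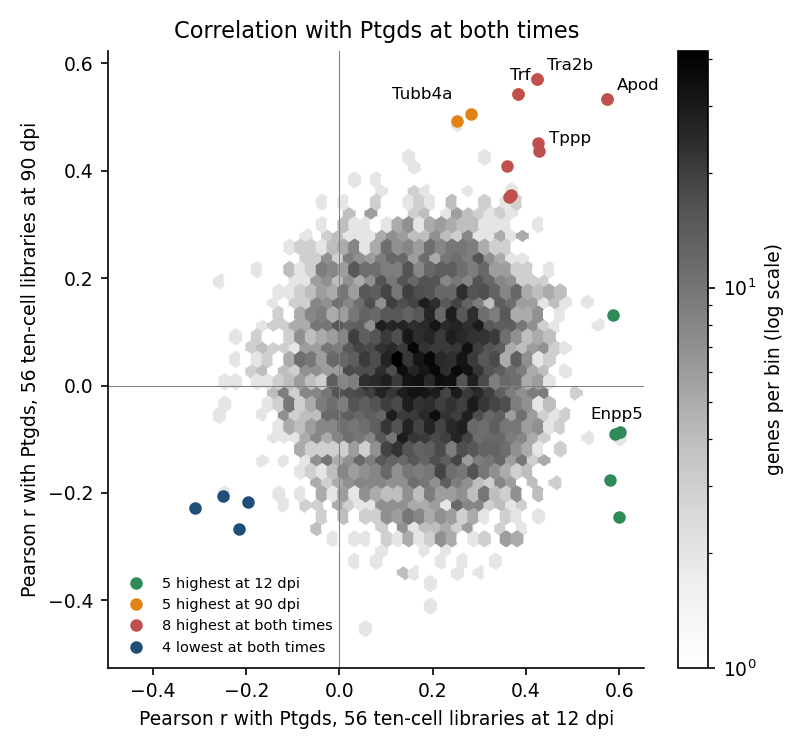
Pearson r with Ptgds over 56 10-cell libraries at 12 dpi (x axis) and 56 at 90 dpi (y axis) for 7599 genes, shaded by the number of genes per bin, with coloured points for the named genes. The cloud is centred at 0.18 on the x axis and 0.03 on the y axis, and Apod lies apart from it on both.

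At a single time other genes led. The 5 highest at 12 dpi were Enpp5, Nrsn1, Calb2, Pank2 and Fam98b, with r of 0.60, 0.60, 0.59, 0.59 and 0.58. At 90 dpi they had r of -0.09, -0.25, -0.09, 0.13 and -0.18. Calb2, the calcium-binding protein calretinin, and Nrsn1, a vesicle membrane protein, are known from neurons. The 5 highest at 90 dpi were Tra2b, Trf, Apod, the tubulin Tubb4a (0.51) and the kinase Aatk (0.49). Tubb4a and Aatk had r of 0.28 and 0.25 at 12 dpi, so that the leading genes at 90 dpi were above the median of all genes at both times. The 4 genes lowest at both times were Abcb4, Aim2, Rasl12 and Ndufa12, with r between -0.31 and -0.20.

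Of 14 marker lists, the one for late oligodendrocytes stood highest at 90 dpi among lists with 2 or more genes ranked. Of its 12 genes, which include Apod and Trf, 6 were ranked, and their median r was 0.33 at 12 dpi and 0.33 at 90 dpi. All 6 were above 0 at both times, and 3 of them, Apod, Trf and the actin regulator Gsn (0.34 and 0.37, named after its values were seen), were above 0.3 at both. The myelin list had 4 of 15 genes ranked, with median r of 0.13 and 0.24. For its summed level over all 15 genes r was 0.14 and 0.26, against 0.33 and 0.58 for the summed late oligodendrocyte list. The precursor list had a median r of 0.13 and -0.02 (6 of 11 ranked). Cspg4 was at 0.10 and 0.02 and Pdgfra at 0.17 and -0.24. At 12 dpi the precursor and myelin lists were thus alike, and both lay below the median of 0.18 over all genes. In the pool-and-split libraries the median r at 12 and 90 dpi was 0.11 and 0.01 for the late oligodendrocyte list. For the myelin list it was -0.09 and 0.24 there, and for the precursor list 0.04 and -0.07.

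The median r was higher at 12 than at 90 dpi over all genes and in most lists of other cell types, but not in the blood list (0.03 and 0.25, 3 of 4 ranked) or for the single ranked choroid plexus gene (-0.08 and 0.31). The neuron list had a median r of 0.25 at 12 dpi and 0.05 at 90 dpi (10 of 11 ranked), the endothelial list 0.23 and 0.07 (8 of 10), the mural list 0.21 and -0.01 (6 of 9) and the astrocyte list 0.17 and -0.04 (8 of 10). The leptomeningeal fibroblast list had 0.29 and 0.03, but only 4 of its 13 genes were ranked. For its summed level r was 0.07 and 0.09. Dcn was counted in 21 libraries at 12 dpi and 30 at 90 dpi, too few to be ranked at 12 dpi, with r of 0.29 and 0.44. The haemoglobin genes Hbb-bs, Hba-a1 and Hba-a2 had r of 0.03, 0.00 and 0.04 at 12 dpi and 0.37, 0.25 and 0.22 at 90 dpi.

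In bulk tissue, where each animal's library averages over many cells, Ptgds was counted in all 37 animals and at 44.2 CPM or more in each of the 30 that were not tumours. In WT mice at 12 dpi it was at 236, 274, 319, 357 and 364 CPM (310 ± 54.6, SD, n = 5 animals). In CKO mice at 12 dpi it ranged from 99.5 to 940 CPM with a median of 117 CPM. Of these 7 mice, 5 were at or below 134 CPM, under every WT mouse of that time, and the other 2 were at 343 and 940 CPM, so the groups overlapped. At 90 dpi WT mice were at 101, 126, 183, 225 and 294 CPM (186 ± 77.4, SD, n = 5), the highest of these from a library of only 93694 counts. CKO mice at 90 dpi ranged from 61.5 to 281.5 CPM with a median of 114 CPM. WT mice at 150 dpi ranged from 44.2 to 269 CPM around a median of 127 CPM. In bulk samples, fewer cells with the transcript and less transcript per cell cannot be told apart.

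**Figure D3:**
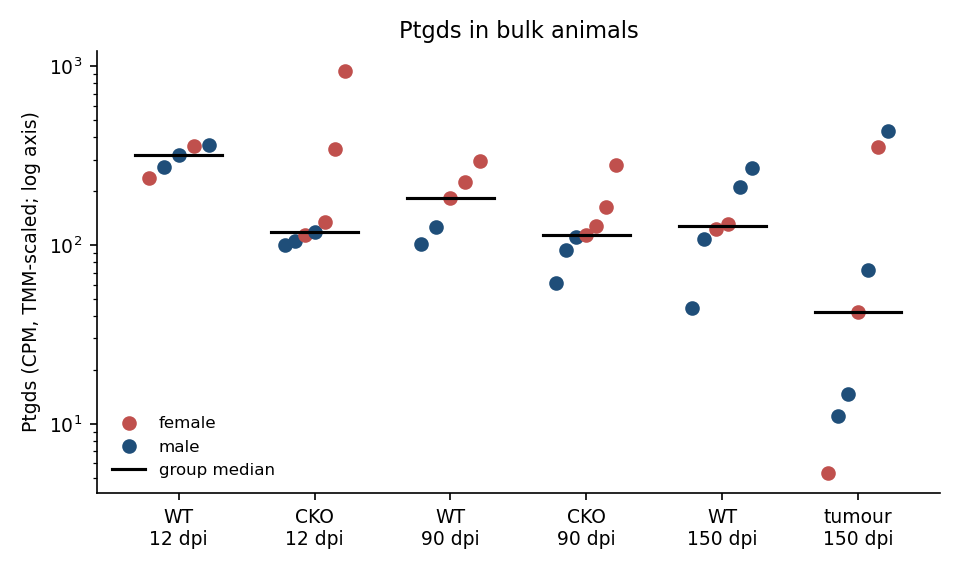
Ptgds in 37 bulk animals on a log axis of TMM-scaled CPM, coloured by sex, with the median of each group as a bar. WT mice at 12 dpi lie between 236 and 364 CPM, while the 7 tumours spread from 5.30 to 432 CPM.

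No contrast over time or genotype outside the tumours passed the test in the fit of all bulk groups. Between CKO and WT at 12 dpi the log2 fold change was -0.50 (SE 0.70, edgeR adjusted p = 1.00), in a comparison in which edgeR called 0.0184% of 16346 genes. Without the CKO mouse at 940 CPM (CKO_22364) it was -1.12 (SE 0.67), also with an adjusted p of 1 from edgeR. At 90 dpi the CKO and WT difference was -0.39 (SE 0.69, edgeR adjusted p = 1, 0.0489% of genes called). From 12 to 90 dpi the log2 fold change was -0.90 in CKO mice (SE 0.63; 0% of genes called, with 692 at an unadjusted p under 0.05 and 2 called by DESeq2) and -1.01 in WT mice (SE 0.77; 0.00612% called), each with an edgeR adjusted p of 1. Without CKO_22364 the change in CKO mice was -0.21 (SE 0.61, edgeR adjusted p = 1). The WT change passed when the 2 WT groups were fitted alone (-1.01, SE 0.20, edgeR adjusted p = 0.0229), while its adjusted p over all 16 alternatives ran from 0.0229 to 1. In that fit, whose spread came from these 10 mice alone, 295 of 14200 genes were called. WT mice at 150 and 90 dpi differed by 0.00 (SE 0.74, edgeR adjusted p = 1, 0.0184% called). Between 12 and 90 dpi the genotype effect changed by 0.12 (SE 0.99; 0% called, with 589 genes at an unadjusted p under 0.05 and 6 called by DESeq2) and between 90 and 150 dpi, where the 7 tumours stand for CKO at 150 dpi, by 0.15 (SE 0.95, 30% called), with edgeR adjusted p of 1 and 0.934.

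The mouse CKO_22364 also had the most Dcn of the CKO mice at 12 dpi, 74.9 CPM against 2.5 to 5.2 CPM in the other 6, and the most Apod, 267 CPM against 65.2 to 120 CPM. Its summed leptomeningeal fibroblast markers were 276 CPM against 40.6 to 108 CPM. Its Col1a1 was 13.3 CPM, also the highest of that group. The part of these cells in its Ptgds was not tested. In CKO_20647 at 90 dpi, 1 of 2 libraries of the same animal had 0 Ptgds counts among 9.47 M counts, where 3 counts would be 0.317 CPM, and the other had 187 CPM. The library at 0 detected 13265 genes against 17957 in the other. The animal entered the fit as the sum of both.

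Tumours were the group in which Ptgds differed most from animal to animal. The 7 tumours were at 5.30, 11.0, 14.6, 42.3, 72.8, 351 and 432 CPM, a range of 6.31 on the log2 scale. The SD of log2 CPM was 2.44, against 0.26 to 1.22 in the other groups, and 1.13% of the 16346 genes tested had a larger SD over the tumours. Each tumour was sequenced as 2 libraries, and these differed by 0.23 to 1.25 on the log2(CPM + 1) scale, with a median of 0.65. The tumour median was 42.3 CPM, against 127 CPM in WT mice at 150 dpi and 114 CPM in CKO mice at 90 dpi. The mean log2 CPM was 5.52, 7.00 and 6.94 in the same order. No difference in level passed the test. Against WT at 150 dpi the log2 fold change was -0.24 (SE 0.65, edgeR adjusted p = 0.805, 46.2% of genes called), and against CKO at 90 dpi 0.15 (SE 0.63, edgeR adjusted p = 0.865, 49% called). Both comparisons use the same tumours. The sign of each turned when single animals were left out. Against CKO mice it was -0.77 without Tumor_21354 and -0.22 without Tumor_16713, and against WT mice 0.01 without Tumor_21349 and 0.09 without WT_21593. Without Tumor_21354 the difference from WT mice was -1.30, with an edgeR adjusted p of 0.0933.

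Apod followed Ptgds through the tumours. In the order of rising Ptgds, Apod was at 34.3, 54.3, 99.4, 207, 249, 394 and 397 CPM, which is the same order (Spearman rho = 1.00, Pearson r = 0.96 on log2 CPM, n = 7). The exact permutation p was 0.00040 for rho and 0.0018 for r, or 0.0032 and 0.014 adjusted over the 8 like genes. Without the 2 tumours farthest from the median, Tumor_16713 and Tumor_21354, r was 0.98 (n = 5). Of the other 7 like genes, Snrnp27 ran against Ptgds (r = -0.85, exact permutation p = 0.019, adjusted 0.075, n = 7; rho = -0.89, adjusted 0.049), and 6 had adjusted exact permutation p from 0.25 to 0.44 by r.

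**Figure D4:**
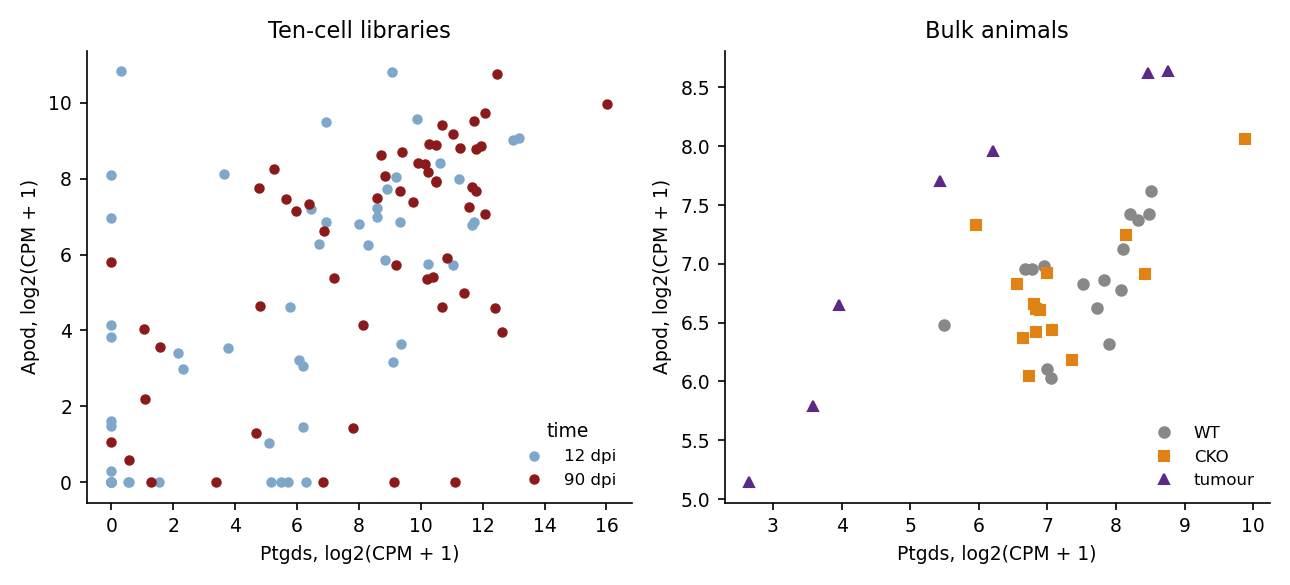
Apod against Ptgds, both as log2(CPM + 1): left, 112 10-cell libraries by time; right, 37 bulk animals by kind. The 7 tumours (triangles) lie in the same order on both axes.

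Markers of some other cell types moved with Ptgds in the tumours. Of the 13 leptomeningeal fibroblast markers 8 had r above 0.8 over the 7 tumours, against 2.69% of all 16345 other genes, and the median of the list was 0.84 against 0.04 over all genes. Dcn was at 1.56, 3.23, 3.23, 27.4, 7.00, 95.2 and 102 CPM in the order of rising Ptgds, and Col1a1 at 1.70, 1.62, 0.86, 3.33, 8.80, 151 and 54.8 CPM. The summed list was 117 to 401 CPM in the 5 tumours with less Ptgds and 1899 and 608 CPM in the 2 with the most. The microglia list had a median r of 0.75, with 4 of 11 above 0.8. The myelin list had a median of 0.57 with 4 of 15 above 0.8, and Mbp was at 57.6, 45.3, 162, 153, 256, 761 and 374.5 CPM in that order. The late oligodendrocyte list had a median of 0.42 with 1 of 12 above 0.8, which was Apod. The precursor list had a median of 0.04 and none of 11 above 0.8, while the committed precursor list had 0.59 with 1 of 7. The perivascular macrophage, blood, ependymal, mural and choroid plexus lists had medians of 0.65, 0.63, 0.62, 0.54 and 0.49. Only 3 genes each of the blood and ependymal lists were tested. The endothelial, astrocyte and neuron lists had 0.26, 0.11 and -0.08. These are descriptions over 7 animals, and the part of other cell types in the Ptgds of tumours was not tested.

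Over the 30 bulk animals that were not tumours, centred on their groups, Apod had r = 0.55 with Ptgds (permutation p = 0.0091, adjusted over 8 genes 0.073) and rho = 0.47 (permutation p = 0.013, adjusted 0.11). Without the 2 animals farthest from the median of Ptgds, CKO_22364 and WT_21592, r was 0.30 (permutation p = 0.13, n = 28), so its size depended on those animals. They were picked by their Ptgds, and leaving them out narrows its range, which can by itself lower r. Whether the relation outside tumours rests on them cannot be told from this. Trf had r = 0.09 (permutation p = 0.64, adjusted 0.86). Without the shallow WT library of 93694 counts, left out after seeing the data, r of Trf was 0.56 (permutation p = 0.0088, adjusted 0.071, n = 29). None of the 8 genes passed an adjusted p of 0.05 in these 30 animals. With the tumours added (n = 37) Apod (r = 0.82) and Snrnp27 (r = -0.45) did, with permutation p adjusted to 0.00016 and 0.028. In the 30 animals the leptomeningeal fibroblast list had a median r of 0.32, with 8 of 13 genes above 0.3, against -0.05 and 8.85% over all genes. The late oligodendrocyte list had 0.10, with 2 of 12, and the myelin list 0.18, with 4 of 15.

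Ptgds was not called in tumours. Of 30 other genes of prostaglandin metabolism 28 were tested. Called were 10 against WT mice at 150 dpi and 16 against CKO mice at 90 dpi, where 46.2% and 49% of all genes were called. Against WT mice at 150 dpi 7 rose and 3 fell, where 24.3% of all genes rose and 21.9% fell, with a median log2 fold change of 0.23 against 0.06 over all genes. Against CKO mice at 90 dpi 10 rose and 6 fell, where 26.4% of all genes rose and 22.6% fell, with a median of 0.58 against 0.12. In the comparisons of CKO with WT mice edgeR and DESeq2 each called 0 of the 28 at 12 dpi and at 90 dpi, and an unadjusted edgeR p under 0.05 was found for 1 and 2 of them.

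Upstream, the phospholipases that free arachidonic acid and the cyclooxygenases that turn it into prostaglandin H2 moved unevenly. Ptgs1, the constitutive cyclooxygenase, was at 7.42 ± 1.40 CPM in WT mice at 150 dpi (SD, n = 6) and 23.8 ± 11.7 CPM in tumours (SD, n = 7). It rose by 1.65 on the log2 scale (SE 0.53, edgeR adjusted p = 0.011). Against CKO mice at 90 dpi it did not pass, and 1 of those mice was at 128.5 CPM. Ptgs2, the inducible form, was at 24.8 ± 15.7 CPM in CKO mice at 90 dpi (SD, n = 7) and 4.57 ± 4.77 CPM in tumours (SD, n = 7) and fell by 2.53 on the log2 scale (SE 0.50, edgeR adjusted p = 6.6e-05). Its fall against WT mice (-1.31, edgeR adjusted p = 0.034) was lost in 10 of 19 alternatives. Of 4 phospholipases only Pla2g4c was called, against CKO mice (1.18, edgeR adjusted p = 0.041), and that call was lost in 8 of 20 alternatives.

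At the step of Ptgds itself the other prostaglandin D synthase rose. Hpgds was at 6.89 ± 2.01 CPM in WT mice at 150 dpi (SD, n = 6), 7.09 ± 1.78 in CKO mice at 90 dpi (SD, n = 7) and 15.6 ± 7.66 in tumours (SD, n = 7). The log2 fold changes were 1.18 (SE 0.32, edgeR adjusted p = 0.0023) and 1.11 (SE 0.30, edgeR adjusted p = 0.0022), called in all 19 and all 20 alternatives. Tbxas1, thromboxane synthase, rose by 2.56 and 2.00 on the log2 scale, and Akr1b3, an aldose reductase, by 0.89 and 0.55. Cbr1, a carbonyl reductase, fell by 0.73 and by 0.99. Of these, the call of Akr1b3 against CKO mice was lost in 9 of 20 alternatives. The summed microglia markers were 519 to 1690 CPM in the tumours, 142 to 260 in WT mice at 150 dpi and 136 to 291 in CKO mice at 90 dpi, and their part in these changes was not tested.

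Among receptors, Pparg, a nuclear receptor for fatty acids and prostaglandin derivatives, fell most clearly, from 7.78 ± 3.35 CPM in WT mice at 150 dpi (SD, n = 6) and 11.3 ± 1.05 in CKO mice at 90 dpi (SD, n = 7) to 1.49 ± 0.86 in tumours (SD, n = 7). It fell by 2.30 (SE 0.32, edgeR adjusted p = 2.1e-07) and by 2.92 (SE 0.31, edgeR adjusted p = 7.9e-10) on the log2 scale. The prostaglandin D2 receptor Ptgdr was scarce, at most 4.9 CPM in a tumour, and the second receptor Ptgdr2 was too low to be tested. Against CKO mice Ptgdr rose by 3.56 and the prostaglandin E2 receptor Ptger3 fell by 2.91 on the log2 scale (edgeR adjusted p = 0.010 and 0.00063). Ptgdr had a result in only 9 alternatives and was called in each, while Ptger3 had one in 20. Downstream, Hpgd, which inactivates prostaglandins, rose by 1.62 and 1.68, and the reductase Ptgr1 by 2.73 and 2.70, on the log2 scale. The transporter Abcc4 rose by 1.31 and 1.51. All of these calls of Hpgd, Ptgr1, Abcc4 and Pparg held in each alternative run. The summed neuron markers were 308 to 1554 CPM in the tumours, 8393 to 11637 in WT mice at 150 dpi and 8477 to 16305 in CKO mice at 90 dpi, and their part in the falls of Ptgs2, Cbr1, Pparg and Ptger3 was not tested.

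**Figure D5:**
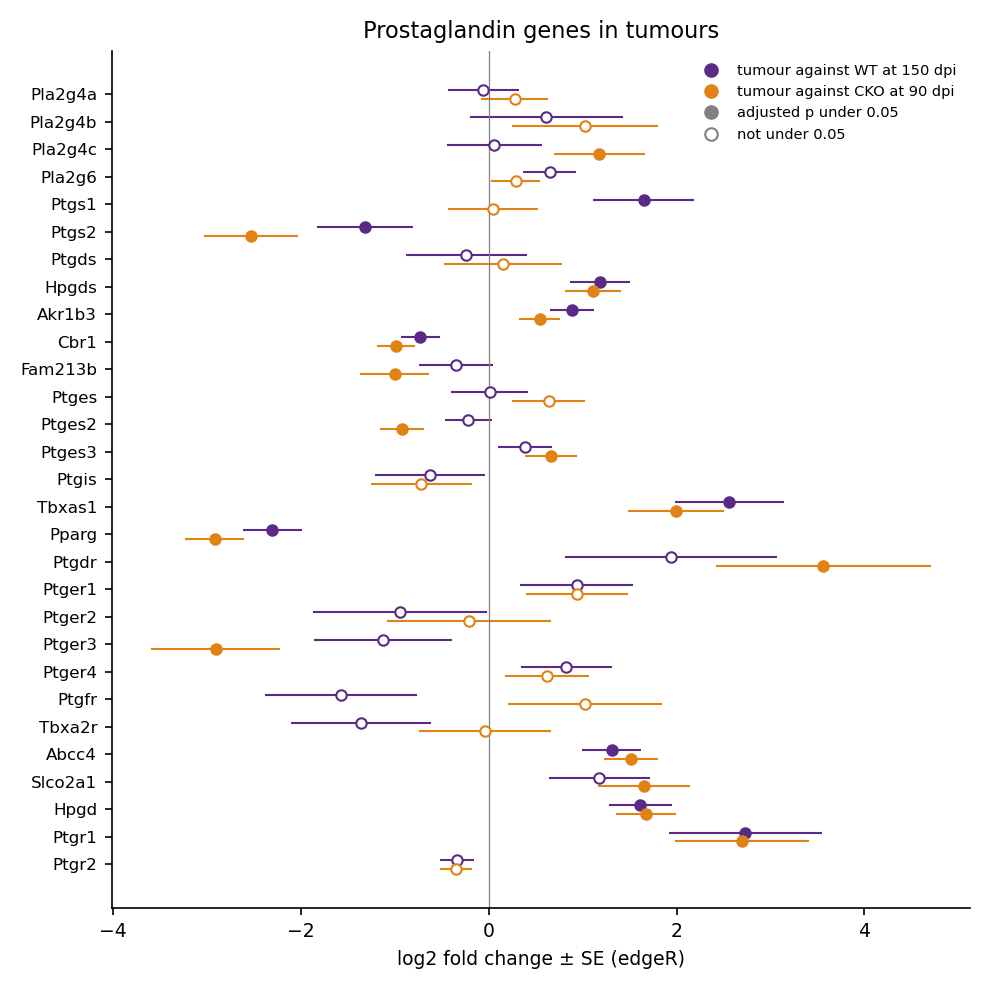
Log2 fold change with its SE for 28 tested prostaglandin genes and Ptgds, in order of their role from phospholipases to degradation; filled points have an edgeR adjusted p under 0.05. Ptgds lies near 0 in both comparisons, Hpgds above 0 and Pparg furthest below 0 of the genes called in both.

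Of the 7 other lipocalins 3 could be tested in bulk. Apod was at 101 ± 23.2 CPM in WT mice at 150 dpi (SD, n = 6) and 205 ± 151 in tumours (SD, n = 7), a rise of 1.00 (SE 0.39, edgeR adjusted p = 0.033) that was lost in 7 of 19 alternatives. Lcn2, an iron-siderophore carrier of inflammation, was at 0.08 ± 0.21 CPM in those WT mice and 2.57 ± 3.18 CPM in tumours (edgeR adjusted p = 0.0060), a level near that of a few counts. Rbp4, the carrier of retinol, fell from 6.46 ± 1.59 CPM (SD, n = 6) to 2.22 ± 1.99 CPM (SD, n = 7), or by 1.58 on the log2 scale (edgeR adjusted p = 0.0080), a call lost with the compared groups alone (edgeR adjusted p = 0.056). The part of the lower neuron markers of tumours in this fall was not tested either. Orm1, Apom, Ambp and C8g had group means of at most 0.75 CPM and were not tested.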

How the data were processed

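Expected counts per gene were deposited by the authors in a single table of 34623 genes and 92 spike-in RNAs over 240 libraries. The submitters' processing notes name RSEM, Bowtie2 and GRCm38, without versions. Bulk libraries were made from total RNA by T7 amplification and the small libraries from polyA RNA by PCR with tagmentation, per the labels' protocols. Levels of the 2 kinds were therefore not tested against each other. RSEM shares reads between similar transcripts.

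Columns were matched to samples by title. Libraries of the same bulk animal were summed, as were the libraries of a small-library set, and counts were rounded to whole numbers. Genes were filtered by edgeR's filterByExpr (minimum count 10, minimum total 15), scaled by TMM and tested with edgeR's quasi-likelihood test (edgeR 4.0.16, R 4.3.3) over all genes with sex as a covariate and Benjamini-Hochberg adjustment. A gene was called at an adjusted p under 0.05. All bulk groups shared 1 estimate of the spread. Log2 CPM per bulk animal used a prior count of 2 and small libraries log2(CPM + 1). Bulk correlations were tested by permutation within groups (100000 draws) or, in tumours, exactly (Python 3.11.15, scipy 1.17.1). DESeq2 1.42.0, RLE size factors, no filter, no sex term, the deepest library per animal, the compared groups alone, a replicate block and leaving out each replicate were alternatives. The tests were checked on simulated data. No 2 libraries were identical.

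The named genes were the 8 with the highest and the 4 with the lowest r at both times, the 5 highest at each time, and the pathway and marker lists. Members, lists and rules were chosen with earlier results of these data known. The values of 1 marker gene are not reported here.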

Additional observations from a re-analysis of the deposited data

Results flagged for a closer look

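Of 22 groups of 4 to 10 values examined for Ptgds, 3 had a value far from the others for the group's range. Chance gives this in about 1 group in 20 for normally distributed values. The CPM values of the small libraries were skewed, so that rate need not hold here. The small libraries also hold the values that chose the gene, so no excess over chance is read from this count. In bulk CKO mice at 12 dpi the mouse CKO_22364 was at 940 CPM, against 99.5 to 343 CPM in the other 6. Among the 10-cell sets at 90 dpi the female-1 set was at 5187 CPM, with 86.4% of its Ptgds counts in 1 of 14 libraries. Among the pool-and-split libraries of the female-2 set at 12 dpi, 1 was at 3717 CPM and the next at 1753 CPM.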

How the results depend on the processing

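Of the values that answer a comparison, 208 kept their direction and their side of the threshold under an alternative and 30 changed sign. None of the 30 was a called difference. The change in spread was 0.12 with a pseudocount of 5, -1.24 with 0.1 and -1.42 by median absolute deviation. For WT mice at 150 against 90 dpi the log2 fold change was -0.021 with DESeq2, -0.017 with no filter, -0.25 with no sex term, -0.036 with the deepest library per animal and -0.12 with the compared groups alone. For tumours against CKO mice at 90 dpi it was -0.026 with no sex term and -0.075 with the deepest libraries. The change of the genotype effect was -0.16 from 12 to 90 dpi with no sex term and -0.038 from 90 to 150 dpi with the deepest libraries. With the compared groups alone, the fall in WT mice from 12 to 90 dpi passed (-1.01, edgeR adjusted p = 0.0229), and the cause was not tested.

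Leaving out each replicate in turn moved the log2 fold change from -1.30 to 0.094 for tumours against WT mice, from -0.77 to 0.44 for tumours against CKO mice, from -1.13 to -0.21 for CKO mice from 12 to 90 dpi, from -0.31 to 0.15 for WT mice at 150 against 90 dpi, from -0.14 to 0.71 for the genotype effect from 12 to 90 dpi and from -0.90 to 0.48 from 90 to 150 dpi. Over 10-cell sets it moved from 0.72 to 2.56. With sex and number as a replicate block the log2 fold change was 2.12 over 10-cell sets and -0.26 over pool-and-split sets, with 0 genes called in each. Sets with the same sex and number did not deviate together (r from -0.034 to 0.019 and from -0.039 to 0.003). These values show no pairing of the sets, but they cannot tell what the number marks.

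Among relations with Ptgds over bulk animals, 2 of 8 genes passed with all 37 animals and 0 of 8 in the 30. Tppp was then at 0.44, Gp1bb was at -0.026 by Spearman rho, and without the 2 farthest animals Retreg2, Trf and Gp1bb were at -0.056, -0.037 and -0.17. Apod ranked first in likeness under every alternative except a pseudocount of 0.1, where it ranked 2, and detection in 90% of libraries, which it did not pass and which gives it no rank. RLE size factors moved the median log2 fold change of all genes in tumours from 0.06 to 0.22 against WT mice and from 0.12 to 0.29 against CKO mice. Genes called changed from 3 to 92 for CKO against WT mice at 12 dpi and from 1 to 295 for WT mice from 12 to 90 dpi with the compared groups alone, and to 13 and 9 with DESeq2. The shallowest bulk library, of 93694 counts, held 31 Ptgds counts, which limits its precision.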

Other observations

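In 3 groups of bulk animals the higher Ptgds levels were in females, a pattern noticed in the data and not tested. In CKO mice at 90 dpi the 3 males were at 61.5, 93.4 and 110 CPM and the 4 females ranged from 114 to 281.5 CPM. The male at 110 CPM is CKO_20647, the sum of a library with 0 Ptgds counts and one at 187 CPM, which is above 3 of the 4 females. In WT mice at 90 dpi the 2 males were at 101 and 126 CPM and the 3 females at 183, 225 and 294 CPM. In CKO mice at 12 dpi the 3 males were at 99.5, 106 and 117 CPM, and the 4 females at 113, 134, 343 and 940 CPM, so the sexes overlapped. The other groups did not show it: in WT mice at 150 dpi the lowest and the highest value, 44.2 and 269 CPM, were both in males, and the highest tumour, at 432 CPM, was in a male.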
